A study of Mus musculus with 2 samples.

Results

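Inha and Inhbb encode the α and βB subunits of the inhibin and activin hormones, and their transcripts were followed here in single LβT2 cells after a short exposure to gonadotropin-releasing hormone (GnRH). The 2 genes were chosen by name as the inhibin subunit genes among the 1068 genes analysed and not by a threshold on their values. LβT2 is an immortalized, clonal line of mouse pituitary cells used as a model of the gonadotrope, which makes luteinizing and follicle-stimulating hormone. At passage 15, one culture received 2 nM GnRH and the other vehicle, both for 40 min, and each gave 1 GEM Drop-seq library, a droplet-based 3′ assay in which every captured mRNA molecule is counted once by its unique molecular identifier (UMI). The libraries comprised 1992 vehicle-treated and 1889 GnRH-treated cells. Because each treatment had 1 library, no difference between treatments has a replicate check, no test was run, and all intervals are 95% intervals of counting error.

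Inhibins and activins are dimers of the transforming growth factor-β superfamily. An α subunit joined to a β subunit gives inhibin, whereas paired β subunits give activin, and activin B is the dimer of βB chains. In the pituitary, activin B made by gonadotropes acts on the same cells through type II and type I receptors and SMAD proteins to raise Fshb, the gene of the follicle-stimulating hormone β subunit. Inhibin, which comes mainly from the gonads, binds the same type II receptors together with betaglycan and opposes this action. A cell that makes both subunits could in principle form either hormone, and hence the level of the subunits and whether they are found in the same cells are both of interest.

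Both genes lie on chromosome 1 in GRCm38 and are separated by 43.9 Mb. Inha (ENSMUSG00000032968) occupies positions 75507077 to 75510366 on the plus strand, and Inhbb (ENSMUSG00000037035) positions 119415465 to 119422248 on the minus strand. Each has 1 transcript of 2 exons in the GENCODE M21 annotation, from which all sequences were taken, and neither overlaps another annotated gene. The Inha transcript has 1475 bases with 206 from the stop codon on, and that of Inhbb 4255 bases with 1860. The coding sequences span 366 and 411 codons, of which 12 and 14 encode cysteine. Members of this family are held together by cysteine bridges, and a pair of cysteines close to the carboxyl end is one of their shared features. The last 90 coding bases of each transcript and the stop codon are shown to let the subunits be compared at this end, with the cysteine codons in capitals. The stretches lie at chr1:75510071-75510163 (plus strand) for Inha and at chr1:119417322-119417414 (minus strand) for Inhbb.
Inha coding end: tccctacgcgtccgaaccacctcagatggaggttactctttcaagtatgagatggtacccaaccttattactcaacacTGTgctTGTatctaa
Inhbb coding end: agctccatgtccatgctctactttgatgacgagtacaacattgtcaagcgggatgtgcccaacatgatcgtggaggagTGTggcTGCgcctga

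In both genes the marked codons are 2 in number and stand 1 codon apart, just ahead of the final residue. The assay primes on the poly(A) tail, so the UMIs derive from the 3′ end of the mRNA. The last 30 bases of each annotated transcript are given to show where this tail is attached, with the polyadenylation hexamer AATAAA in capitals. They lie at chr1:75510337-75510366 for Inha and chr1:119415465-119415494 for Inhbb.
Inha 3′ end: AATAAAaaaggaagtgtgtgtgcctttgta
Inhbb 3′ end: tataagacAATAAAagatggagtgccacgg

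The hexamer is followed by 24 bases in Inha and by 16 in Inhbb. Searched on the transcript strand alone, it occurred in the last 30 bases of 35.5% of the 58793 protein-coding transcripts of the annotation. It occurs 1 time after the Inha coding sequence and 3 times after that of Inhbb, and UMIs from earlier ends cannot be told apart from the others in a count per gene.

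The count table was analysed in part, for 1068 of 27998 listed genes. These genes gave 1126320 UMIs with vehicle and 1118763 with GnRH, with medians of 543.5 and 561 per cell. Levels are given as CPM, the share of these UMIs scaled to 1e+06, and do not refer to the whole transcriptome. All 1062 of the genes that could be placed were on chromosome 1, and none of 6 gonadotrope markers or of 9 markers of other pituitary, endothelial and stem cells was among the genes analysed here. The marker Col3a1, the 1 gene held of 3 fibroblast markers, had 0 UMIs in 3881 cells. The labelled cell type was therefore not checked by its own markers. Btg2, an early response gene used here as a reference for the action of GnRH, had 1049 UMIs without and 33510 UMIs with the hormone. It made up 3.00% of the UMIs of the analysed genes with GnRH, and without its UMIs in the scaling the log2 ratios given next were 0.22 for Inha and -0.24 for Inhbb.

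Inha, the α subunit, was 1.13-fold higher in the GnRH library, and Inhbb, the βB subunit, was at 0.824 of its vehicle level. Inha had 2024 UMIs in vehicle-treated and 2281 in GnRH-treated cells, which corresponds to 1797 CPM (interval 1719.6 to 1877) and 2039 CPM (1956 to 2124). Its log2 ratio of CPM, GnRH over vehicle, was 0.18 (0.10 to 0.27). It was 0.11 without the 5% of cells with most UMIs and 0.27 under TMM scaling. Inhbb had 4001 and 3274 UMIs, or 3552 CPM (3443 to 3664) and 2926 CPM (2827 to 3028), and a log2 ratio of -0.28 (-0.35 to -0.21). The intervals of the libraries did not overlap for either gene, and the differences had opposite signs. Both genes varied between cells by more than counting alone gives, and the spread between cultures is not known, so the true uncertainty is wider than these intervals.

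Neither gene reached a 2-fold difference. Of 409 genes with at least 100 UMIs over both libraries, 5 (1.22%) were at least 2-fold higher with GnRH and 0 (0%) were at least 2-fold lower, whereas 392 (95.8%) stayed within 1.5-fold, Inha and Inhbb among them. Over the 409 genes the log2 ratios had a median of -0.09 (interquartile range -0.19 to 0.00). Inha had the 30th highest and Inhbb the 51st lowest ratio of the 409. Both thus lay outside the middle part of the distribution but far from Btg2, whose log2 ratio was 5.01 (4.92 to 5.10).

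**Figure D1:**
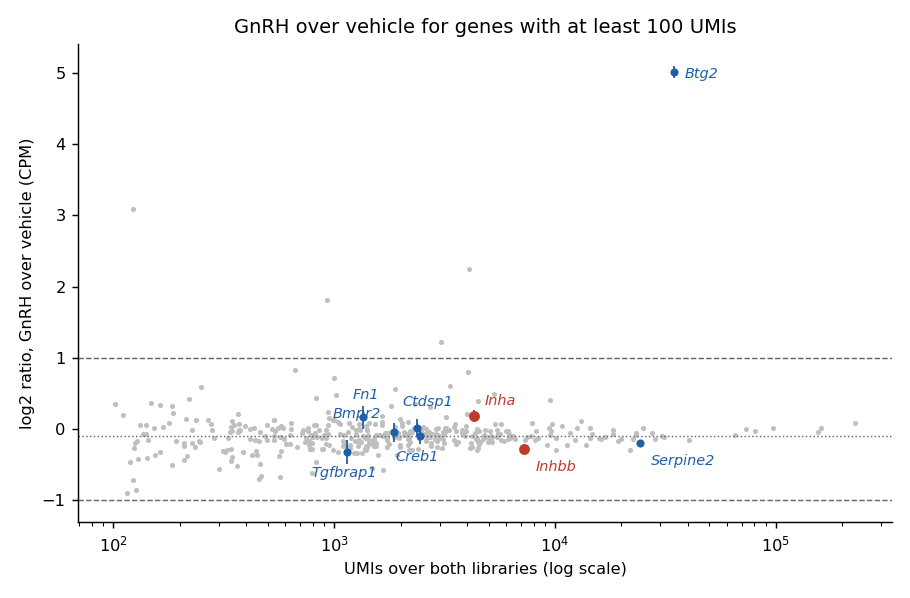
Log2 ratio of CPM, GnRH over vehicle, against UMIs over both libraries (log scale) for the 409 genes with at least 100 UMIs (grey points). Inha and Inhbb are in red. In blue are Btg2, the reference for the action of GnRH and not a pathway gene, and 6 genes of the activin and inhibin pathway lists. Bars are 95% counting intervals, dashed lines mark 2-fold and the dotted line the median. Inha at 0.18 lies above and Inhbb at -0.28 below the median of -0.09, and Btg2 stands at 5.01.

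The abundance of one subunit over the other within a library needs no scaling between libraries. Each mRNA molecule gives at most 1 UMI at its 3′ end, so UMIs were not divided by transcript length, but capture may differ between the transcripts. There were 0.506 Inha UMIs per Inhbb UMI in vehicle-treated cells (0.479 to 0.534) and 0.697 in GnRH-treated cells (0.660 to 0.735). This ratio of α to βB UMIs was 1.38-fold higher with GnRH (1.28 to 1.49). Inhbb had the more UMIs in both libraries. By UMIs, Inhbb ranked at 48 with vehicle and at 53 with GnRH among the 1068 genes, and Inha at 95 and 83.

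The ratios were then examined by depth. Cells of each library were ordered by their UMI total and divided into 3 groups of nearly equal number. The groups were not matched between the libraries. Their median UMI totals were 371 with vehicle and 407.5 with GnRH in the cells with fewest UMIs, 543.5 and 561 in the middle group and 771 and 777.5 in the cells with most. The Inhbb log2 ratio was -0.38 (-0.52 to -0.23) in the cells with fewest UMIs, -0.26 (-0.37 to -0.14) in the middle group and -0.25 (-0.35 to -0.15) in the cells with most. Inhbb was therefore lower with GnRH at each depth. The Inha log2 ratio was -0.11 (-0.32 to 0.10) in the cells with fewest UMIs, 0.35 (0.19 to 0.51) in the middle group and 0.19 (0.07 to 0.31) in the cells with most. Inha was thus higher with GnRH in the middle and deepest groups, whereas the interval of the shallowest group included 0. Here and in the groups of cells below, the intervals leave out the variation between cells, which for Inha exceeded counting error. Whether the Inha ratio depends on depth was not tested.

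Within a library the level of each gene differed between some of the depth groups, without a common order. In vehicle-treated cells Inhbb was at 3913 CPM (3657 to 4183) in the cells with fewest UMIs, 3790.4 CPM (3593 to 3996) in the middle group and 3247 CPM (3097 to 3402) in those with most. In GnRH-treated cells the corresponding values were 3015 CPM (2799 to 3243), 3167 CPM (2984 to 3357) and 2724 CPM (2585 to 2869). Inhbb was thus lowest in the deepest cells of both libraries, although with GnRH the intervals of the shallowest and deepest groups overlapped. Inha was at 1662 CPM (1497 to 1841), 1636 CPM (1507 to 1773) and 1959 CPM (1843 to 2081) in the shallowest, middle and deepest vehicle-treated cells. With GnRH it was at 1543 CPM (1389 to 1709), 2083 CPM (1935 to 2239) and 2235 CPM (2109 to 2367). Inha was highest in the deepest cells of both libraries, while the middle group was near the shallowest with vehicle and near the deepest with GnRH.

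**Figure D2:**
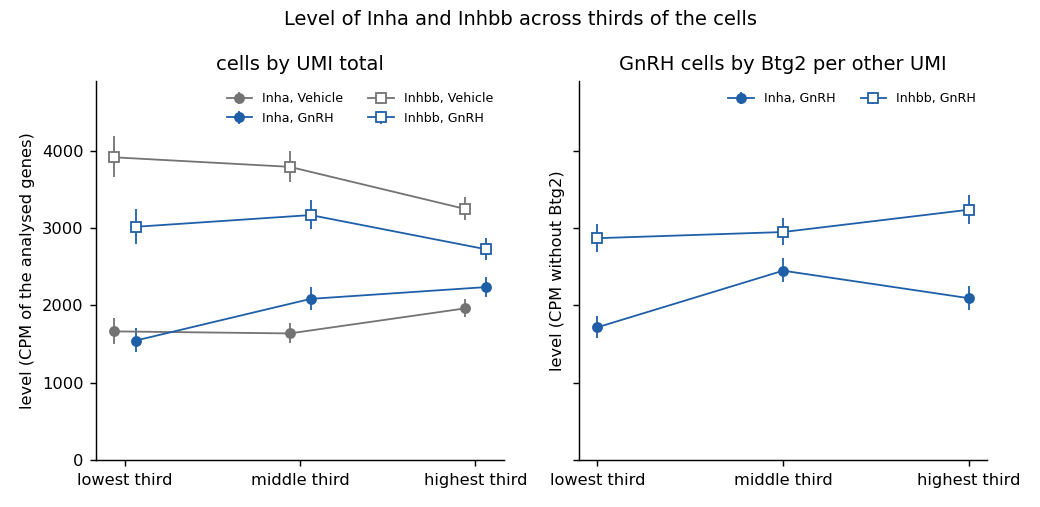
Level of Inha (filled) and Inhbb (open) in CPM of the analysed genes across 3 groups of cells, ordered by UMI total in both libraries on the left and, on the right, by Btg2 UMIs per other UMI in GnRH-treated cells, where Btg2 is left out of the scaling. Bars are 95% Poisson intervals. Inhbb lies lower in the GnRH library at each depth, whereas Inha is at 1543 CPM in the shallowest and 2235 CPM in the deepest GnRH-treated cells.

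The right part of that plot sets the subunits against the response of the same cells. GnRH-treated cells were ordered by Btg2 UMIs per UMI of the other genes. Median Btg2 UMIs were 3, 15 and 31 in the weakest, middle and strongest group, and median UMI totals 522.5, 598 and 566.5. Inha, scaled here without Btg2, was at 1715 CPM (1579 to 1860), 2447 CPM (2295 to 2608) and 2091 CPM (1944 to 2247) in this order. Inhbb was at 2867 CPM (2690.1 to 3053), 2947 CPM (2779 to 3123) and 3236 CPM (3051 to 3428). The Inha level was thus lowest in the weakest Btg2 group and highest in the middle one, whereas the Inhbb intervals of neighbouring groups, and narrowly those of the weakest and strongest, overlapped. All of these intervals cover counting error alone and are too narrow for a gene that varies between cells as Inha does. In vehicle-treated cells with and without a Btg2 UMI, Inha was at 1830.1 CPM (1702 to 1965) and 1781 CPM (1684 to 1881), and the intervals overlapped. Inhbb was at 3415 CPM (3239 to 3598) in the cells with a Btg2 UMI and 3637 CPM (3498 to 3780) in those without, also with overlapping intervals. The cells with a Btg2 UMI were deeper, with a median of 628 UMIs against 509, and the part of depth in these values was not tested.

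Cells with Inha, that is with at least 1 of its UMIs, numbered 984 of 1992 with vehicle (49.4%, exact binomial interval 47.2 to 51.6%) and 961 of 1889 with GnRH (50.9%, 48.6 to 53.2%). Cells with Inhbb numbered 1522 with vehicle (76.4%, 74.5 to 78.3%) and 1373 with GnRH (72.7%, 70.6 to 74.7%). Because depth differed, the comparison was repeated on 300 UMIs drawn at random from every cell (thinning), which left out 219 vehicle-treated and 108 GnRH-treated cells with fewer. The Inha shares were then 35.1% (32.9 to 37.4%) and 35.4% (33.2 to 37.6%). The Inhbb shares were 61.3% (58.996 to 63.6%) and 53.8% (51.5 to 56.2%). The share of cells with Inha overlapped between the libraries on both scales, while the share with Inhbb at equal depth was lower with GnRH. Over 20 random thinnings the Inhbb share ranged from 58.8 to 62.3% in the vehicle and from 52.3 to 56.3% in the GnRH library. No cell type known to lack these transcripts was present, so the part of these shares that comes from free RNA was not tested.

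Cells with both subunits made up 39.9% of the vehicle library (794 cells, 37.7 to 42.0%) and 38.8% of the GnRH library (733 cells, 36.6 to 41.0%). Inhbb without Inha was found in 36.5% and 33.9% of the cells, Inha without Inhbb in 9.54% and 12.1%, and neither in 14.1% and 15.2%. After thinning to 300 UMIs, 21.8% (19.9 to 23.8%) of vehicle-treated and 18.3% (16.5 to 20.2%) of GnRH-treated cells had both. These intervals overlapped, and over the 20 thinnings the mean was 378 and 336 cells and the ranges met, from 20.4 to 22.5% with vehicle and from 17.6 to 20.4% with GnRH. In the same draw, 13.3% (11.8 to 15.0%) and 17.1% (15.3 to 18.9%) of the cells had Inha alone. Over the 20 thinnings the mean with Inha alone was 234.7 and 294.9 cells, and the ranges nearly met, from 12.1 to 14.8% and from 15.0 to 17.6%. At this depth the cells with Inha alone were the more frequent with GnRH, and those with Inhbb alone the less frequent, at 35.5% (33.3 to 37.8%) against 39.5% (37.2 to 41.8%), though these last intervals overlapped.

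**Figure D3:**
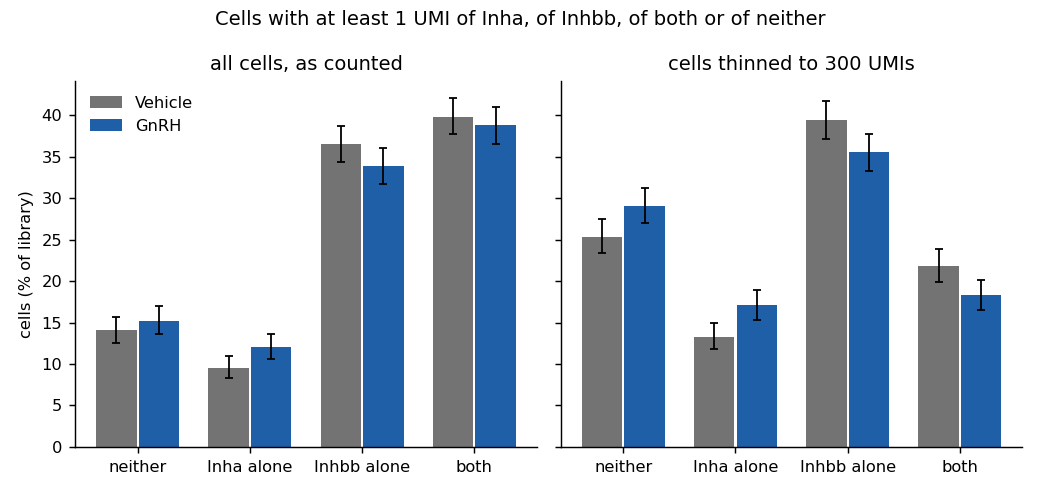
Percent of cells of each library with at least 1 UMI of neither gene, of Inha alone, of Inhbb alone or of both, as counted (left) and after each cell was thinned to 300 UMIs (right). Grey bars are the vehicle and blue bars the GnRH library, and error bars are exact 95% binomial intervals. Cells with both made up 39.9% and 38.8% as counted, and 21.8% and 18.3% at equal depth.

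The genes were found together about as often as their separate shares give. If each gene were distributed over the cells without regard to the other, within 10 groups of cells of like UMI total, 779.8 vehicle-treated and 725 GnRH-treated cells would have both. The observed numbers were 1.02 and 1.01 times these. After thinning, the ratios were 1.01 and 0.986. Pearson correlation of Inha with Inhbb across thinned cells was 0.01 over 1773 vehicle-treated cells and -0.02 over 1781 GnRH-treated cells, averaged over 20 thinnings. These values describe cells that share a library and a fixed depth, and correlations of this size in sparse counts carry no finding.

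The level of one subunit was also compared between cells grouped by the UMIs of the other. In vehicle-treated cells Inhbb was at 3493 CPM (3332 to 3659) in cells without Inha, 3578 CPM (3371 to 3795) with 1 Inha UMI, 3830.2 CPM (3516 to 4164) with 2 and 3445 CPM (3166 to 3742) with 3 or more. In GnRH-treated cells it was at 3029 CPM (2877 to 3187), 2944 CPM (2746 to 3151), 2935 CPM (2657 to 3234) and 2656 CPM (2440 to 2887) in the same order. All intervals overlapped within each library, narrowly for the GnRH-treated cells without Inha and with 3 or more of its UMIs. Inhbb was lower with GnRH in each of the 4 groups. Inha, in turn, was at 1661 CPM (1493 to 1842), 1828 CPM (1672 to 1995), 1735 CPM (1563 to 1921) and 1877.5 CPM (1749 to 2013) in vehicle-treated cells with 0, 1, 2 and 3 or more Inhbb UMIs. With GnRH it was at 1879 CPM (1717 to 2052), 2359.8 CPM (2190.1 to 2539), 2043 CPM (1854 to 2245) and 1874 CPM (1732 to 2025). In GnRH-treated cells, as counted, Inha was thus highest in cells with 1 Inhbb UMI, whose interval did not overlap those of cells with none or with 3 or more. These intervals cover counting error alone, and Inha varied between cells by more than that, so the true uncertainty is wider. These groups differ in depth, since deeper cells have more UMIs of both genes. Thinned GnRH-treated cells were grouped anew by their thinned Inhbb UMIs. With 0, 1, 2 and 3 or more of these, the mean number of Inha UMIs over 20 thinnings was 0.590, 0.585, 0.570 and 0.528. The thinned groups averaged 818.35, 560.85, 254.6 and 147.2 cells, against 516, 525, 349 and 499 cells as counted. They are therefore not the same cells, and the higher Inha level at 1 Inhbb UMI was not tested again in its own group.

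Inha was among the genes that varied most between cells, whereas Inhbb varied less. The measure was the coefficient of variation (CV), squared and divided by the value expected from Poisson counting at the UMI total of each cell. For Inha this was 2.18 with vehicle and 2.88 with GnRH, the fifth highest value in both among the 344 and 342 genes that averaged 0.1 UMI per cell or more. For Inhbb it was 1.39 and 1.44, at ranks 27 and 28. The median gene was at 1.07 in each library, and 20 genes (5.81%) and 23 genes (6.73%) were at 1.5 or above. Inha was past this limit in both libraries and Inhbb in neither. The call for Inhbb depended on the expectation used. With a Poisson expectation from the mean alone, Inhbb was at 1.85 and 1.79, past the limit in both libraries, as were 67 and 62 genes. After thinning to 300 UMIs, Inha was at 1.58 with vehicle, close to the limit, and at 1.82 with GnRH, and 14 and 12 genes were past it.

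**Figure D4:**
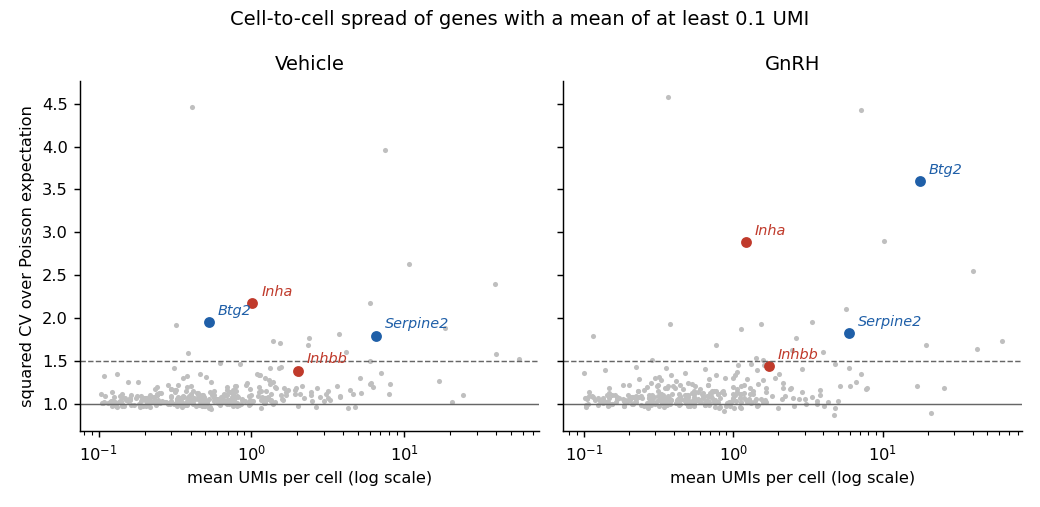
Squared CV across cells over the value expected from Poisson counting (solid line at 1, dashed line at 1.5) against mean UMIs per cell on a log scale, for the genes that averaged 0.1 UMI per cell or more. Inha, in red, stands at 2.18 with vehicle and 2.88 with GnRH, well above most genes of like mean, and Inhbb at 1.39 and 1.44. Btg2 and Serpine2 are in blue.

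The ratio to Poisson depends on the mean, and so the CV that remains after counting and depth are removed was computed as well, a measure added after these values had been seen. It was 1.08 for Inha with vehicle and 1.26 with GnRH, and 0.470 and 0.525 for Inhbb. The CV of Inha was higher than that of Inhbb in both libraries on this scale also. In the observed counts, the CV of Inha was 1.58 against 1.07 expected in the vehicle and 1.67 against 0.984 in the GnRH library. For Inhbb it was 0.961 against 0.816 and 1.02 against 0.847.

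The form of the distributions shows where this variation lies. The number of Inha UMIs ranged from 0 to 16 in vehicle-treated cells, with a mean of 1.02 and a median of 0. In GnRH-treated cells it ranged from 0 to 27, with a mean of 1.21 and a median of 1. Cells without Inha made up 50.6% of the vehicle library against 39.2% expected from Poisson counting, and 49.1% of the GnRH library against 32.8%. At the other end, 6 or more Inha UMIs were found in 50 vehicle-treated cells against 4.29 expected, and in 74 GnRH-treated cells against 7.97. Inha thus had more cells without a UMI and more cells with many than counting gives, in both libraries. The 10% of cells with most Inha UMIs held 46.8% of all Inha UMIs with vehicle and 48.4% with GnRH. These cells were picked by the same counts, and the share that counting alone would give was not computed.

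Inhbb was spread more evenly. Its UMIs ranged from 0 to 17 in vehicle-treated cells, with a mean of 2.01 and a median of 2, and from 0 to 14 in GnRH-treated cells, with a mean of 1.73 and a median of 1. Cells without Inhbb made up 23.6% against 18.0% expected in the vehicle and 27.3% against 21.2% in the GnRH library. There were 115 vehicle-treated cells with 6 or more Inhbb UMIs against 68.5 expected, and 78 GnRH-treated cells against 34.99. The 10% of cells with most Inhbb held 30.8% and 32.0% of its UMIs. The share expected from counting differs with the mean of a gene and was not computed, so these shares alone do not compare Inhbb with Inha.

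**Figure D5:**
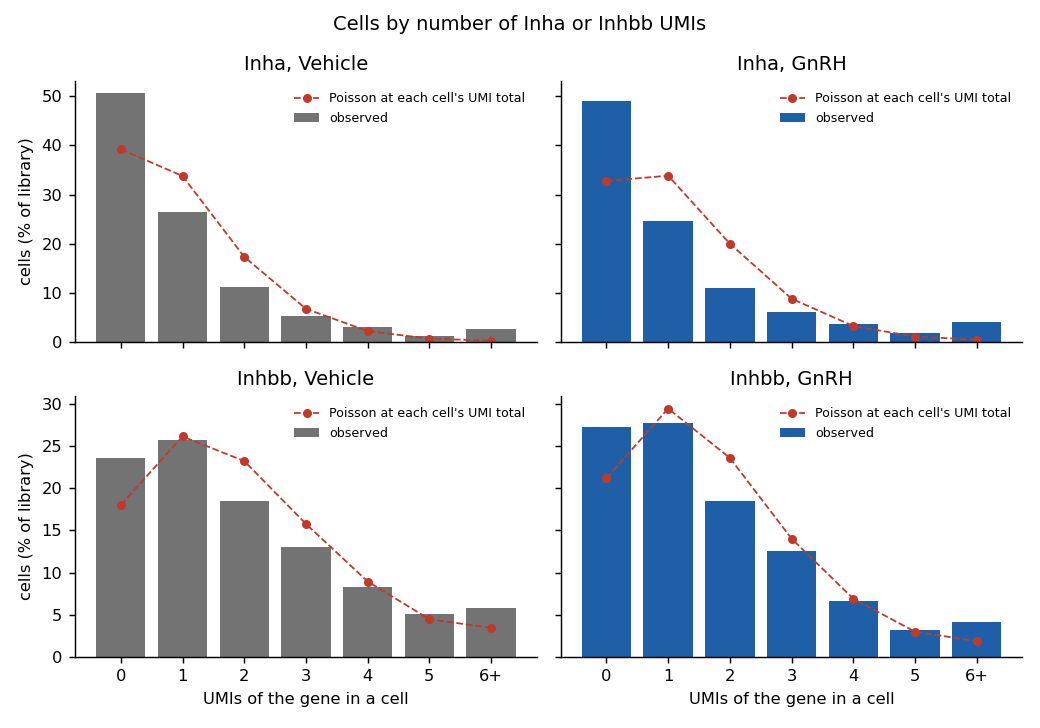
Percent of cells with 0, 1, 2, 3, 4, 5 and 6 or more UMIs of Inha (top) and Inhbb (bottom) in each library (bars), with the percent expected from Poisson counting at the UMI total of each cell (red points). Cells without Inha exceed the expectation in both libraries, at 50.6% against 39.2% and 49.1% against 32.8%, and so do cells with 6 or more UMIs.

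Other genes of the pathway were taken from lists of ligands, receptors, extracellular binders, intracellular mediators, processing enzymes, regulators of the subunit genes and targets. Besides Inha and Inhbb, 10 of 76 listed genes were among those analysed here, 7 had a UMI, and 6 had at least 100. None of the 6 reached a 2-fold difference in either direction, against 1.22% of all 409 genes, and their median log2 ratio was -0.07 beside -0.09 for all (0.02 for the 6 under TMM scaling).

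Among ligands, Mstn, which encodes myostatin, had 2 vehicle and 1 GnRH UMIs, and no ratio was formed. Of the receptor genes, Bmpr2, a type II receptor for bone morphogenetic proteins, had 954 and 918 UMIs and a log2 ratio of -0.05 (-0.18 to 0.09). Tgfbrap1, whose product associates with the type I receptor of transforming growth factor-β, had 639 and 507 UMIs and a log2 ratio of -0.32 (-0.50 to -0.15). Bmpr2 was thus near its vehicle level, and the interval of Tgfbrap1 overlapped that of Inhbb. Bmpr2 overlaps an unclassified transcript and Tgfbrap1 a pair of antisense genes, so the assignment of their reads is uncertain. Tmeff2, a membrane protein that binds members of this family, was at 0 UMIs in both libraries.

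Within the cell, Ctdsp1, a phosphatase that acts on SMAD proteins, had 1176 and 1186 UMIs and a log2 ratio of 0.02 (-0.10 to 0.14), and it overlaps the miRNA gene Mir26b. Creb1, which encodes a cyclic AMP response factor known to act on the Inha promoter, had 1275 and 1182 UMIs and a log2 ratio of -0.10 (-0.21 to 0.02). Neither interval excluded an equal level. Of the target genes, Fn1, which encodes fibronectin and overlaps an antisense gene, had 640 and 712 UMIs and a log2 ratio of 0.16 (0.01 to 0.32). Serpine2, a secreted protease inhibitor, had 12997 and 11231 UMIs and a log2 ratio of -0.20 (-0.24 to -0.16). The collagen genes Col3a1 and Col5a2 were at 0 UMIs in both libraries, which does not exclude a low level.

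The nearest genes before and after each subunit gene in the order of the gene list, with at least 100 UMIs, did not share their ratios throughout. Obsl1, which lies 625 bases before Inha on the opposite strand, had 2227 and 2224 UMIs and a log2 ratio of 0.01 (-0.08 to 0.09). Tmem198, which overlaps Obsl1, was at 0.72 (0.53 to 0.91), above Inha. On the other side, Stk11ip was at -0.11 (-0.35 to 0.13) and Slc4a3, an anion exchanger, at -0.07 (-0.18 to 0.04). Of these 4 neighbours, Tmem198 alone was above Inha, and since it overlaps Obsl1 the assignment of reads between them is uncertain. Near Inhbb, Ralb, a small GTPase 48.1 kb away, was at -0.18 (-0.27 to -0.08) and Gm27184 at -0.27 (-0.81 to 0.26). On the far side the next such genes in the order of the gene list were Tfcp2l1, 730.3 kb away, at 0.09 (-0.35 to 0.53), and 2900060B14Rik, 956 kb away, at -0.14 (-0.43 to 0.14). The intervals of these 4 overlapped that of Inhbb, and each of the 4 also overlaps another annotated gene. Clasp1, which contains 2900060B14Rik, ends nearer to Inhbb and is named here after its values were seen, had 1454 and 1443 UMIs and a log2 ratio of -0.0012 (-0.11 to 0.10), which did not overlap the interval of Inhbb.

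The genes whose UMIs followed each subunit most closely from cell to cell were also listed, as the mean over both libraries of the Pearson correlation across thinned cells, among 338 other genes. For Inha they were Ptma, which encodes prothymosin α, at 0.08, Obsl1 at 0.08 and Dtymk, a thymidylate kinase, at 0.07. For Inhbb they were Serpine2 at 0.11, Scg2, a secretogranin of the secretory granule, at 0.07 and Kdm5b, a histone demethylase, at 0.06. For Inha no gene exceeded 0.1 in both libraries, and for Inhbb Serpine2 did, at 0.12 in vehicle-treated and 0.11 in GnRH-treated cells. Inhbb ranked at 135 of 338 in its likeness to Inha. All of these correlations are weak and are given as a description of these libraries.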

How the data were processed

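UMIs were counted by the authors in Cell Ranger 1.3, giving counts of each gene in each cell. The processing notes name the build mm10, whereas the annotation and the use of strand in counting are not given in the sources used here. The deposited counts were whole numbers for called cells, without normalization. The 1068 complete rows analysed, of 27998 listed genes, are those held complete (1 incomplete row was left out), and totals and CPM refer to them alone. Cell columns carry running numbers, so barcodes shared by the libraries could not be counted. Sequences and positions are from GENCODE M21 (GRCm38).

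UMIs were summed per library. Intervals were exact Poisson, exact binomial (Clopper-Pearson) and, for ratios, exact conditional binomial, at 95%, with a floor of 3 counts. No doublet caller was run, and the 5% of cells with most UMIs were left out as an alternative. Scaling alternatives used factors from edgeR 4.0.16 and DESeq2 1.42.0 without a test. Scripts ran in Python 3.11.15 and were tested on simulated data. Named were both subunit genes, listed pathway genes, Btg2, 2 neighbours on each side and the 3 genes of highest likeness. The genes and lists were chosen with earlier results of these data known.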

Additional observations from a re-analysis of the deposited data

How the results depend on the processing

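No paired analysis was possible because there was a single library of each treatment, which also precludes leaving one out. The log2 ratio of Inha ranged from 0.11 to 0.27 and that of Inhbb from -0.29 to -0.19 over 8 alternatives, so neither changed direction. TMM scaling moved Inha to 0.27 and Inhbb to -0.19, and median of ratios scaling moved Inhbb to -0.20. Both centre the genes by construction and bring the median of the 409 genes to -0.0033 and -0.014. The lower value of Inha, 0.11, was found without the 5% of cells with most UMIs.

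Thinning to 300 UMIs, which lowers the depth of nearly every cell, took the shares of vehicle-treated and GnRH-treated cells to 35.1% and 35.4% for Inha, 61.3% and 53.8% for Inhbb, and 21.8% and 18.3% for both. Without cells under 300 UMIs the vehicle shares were 52.1%, 79.9% and 42.9%, and without the deepest cells 36.4% of GnRH-treated cells had both. The Inha spread over Poisson was 1.58 with vehicle and 1.82 with GnRH after thinning, still past 1.5. An expectation from the mean alone, without the UMI total of each cell, took Inhbb past 1.5, to 1.85 and 1.79, and the number of such genes to 67 and 62. After thinning that number was 14 with vehicle and 12 with GnRH. With at least 20 UMIs, 9 genes were 2-fold higher and 1 lower, and with at least 1 UMI 22 and 14, because genes with low counts were included. Of 77 alternative values, 54 stayed within the interval or limit set for them. The difference between cultures treated alike is not known.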

Other observations

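The genes that followed the subunit genes least from cell to cell were chosen after their values were seen. Igfbp5, which encodes an insulin-like growth factor binding protein, had the lowest correlation with Inha across thinned cells, at -0.10 with vehicle and -0.14 with GnRH. Rpl37a, a ribosomal protein gene, had the lowest correlation with Inhbb, at -0.11 and -0.09, next to Igfbp2, at -0.10 and -0.09. Rpl37a had a mean of 56.3 UMIs per vehicle-treated cell. These correlations are weak, and the cells behind them share a library and a fixed depth.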
